A study of Mus musculus with 12 samples.

Results

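The genes described here are 37 DNA replication and S-phase genes, measured in mouse uterine epithelial and stromal cells that were grown as a primary co-culture. They were chosen by gene symbol from a list of replication factors, each gene being represented by the brightest probe set that carries its symbol alone, and 37 of 37 listed genes were found among the 19938 genes with such a probe set. Uteri of CD-1 mice at day 4 of pseudopregnancy supplied the cells, the epithelium being cultured as sheets on matrigel-coated inserts and the stroma on cover slips. Following overnight depletion of hormones the wells received either 10 nM estradiol (E2) or 0.01% ethanol (vehicle) for 2 days, and each layer was then harvested by itself on Affymetrix Mouse Gene 1.0 ST arrays. Each layer has 3 arrays with vehicle and 3 with E2, which makes 4 groups, and all of them share the strain, the medium with charcoal-stripped serum and the presence of the other layer.

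A cell copies its genome once per division. In G1 the origin recognition complex, with Cdc6 and Cdt1, loads the MCM2-7 helicase onto origins, which is called licensing. In S phase the kinases Cdk2 and Cdc7 turn the loaded helicase into an active one by adding Cdc45 and the GINS complex, and polymerases, the sliding clamp and a supply of deoxynucleotides follow. Most of these genes are transcribed under the control of E2F factors and are commonly read as a sign of cells entering S phase. Estradiol given to an ovariectomized mouse is known for driving the uterine epithelium into S phase, and in that tissue much of the signal passes through the stroma.

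All values are log2 signals as the authors deposited them, so that a difference of 1 is a doubling. A difference is followed by ± its standard error in limma (n = 3 arrays per group), unless SD is written. P-values were adjusted by the Benjamini-Hochberg method across the 23410 probe sets that carry a gene symbol, and 0.05 was the threshold. The array medians over these probe sets lay between 7.38 and 7.43. With probe sets lacking a symbol included, the medians were 7.01 to 7.14 in the epithelial arrays and 6.92 to 6.95 in the stromal arrays. By this measure the layers did not overlap, and the cause of this offset was not tested. Of the 37 genes, 18 had a mean below all of the medians over probe sets with a symbol. Whether they were above background was not tested, and a low signal compresses a fold. Separate cultures or animals are not named for the 3 arrays of a group, so each p-value speaks of the spread among arrays that may be technical replicates. Fewer cells of a type cannot be told apart from less RNA per cell.

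The layers were checked against markers. The mean of 17 epithelial markers was 10.45, 11.07 and 9.51 in the epithelial vehicle arrays and 9.44, 9.66 and 9.73 in the epithelial E2 arrays, against 6.68 to 7.12 in the stromal arrays. Stromal markers were not absent from the epithelial inserts, the mean of 15 such genes being 9.73, 9.55 and 10.32 under vehicle and 10.35, 10.34 and 10.23 under E2 there, and 10.47 to 10.73 in stroma. Mesothelial markers (4 genes) were high in the epithelial arrays at 9.42 to 10.38 and 7.47 to 7.67 in stroma. For the epithelial markers, replicate 2 was the highest and replicate 3 the lowest of the epithelial vehicle arrays.

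The first comparisons asked whether E2 changed the replication genes in either layer, and no gene passed the threshold. In the epithelial layer 0 of 37 genes rose and 0 fell by limma, while 2.90% of all probe sets passed, and 4 of the 37 (10.8%) had an unadjusted p under 0.05, against 16.2% of all probe sets. In the stromal layer 0 of 37 passed as well, against 3.50% of all probe sets, and 5 (13.5%) had an unadjusted p under 0.05, against 12.5%. The epithelial and stromal effects of E2 differed in 0 of the 37 genes, against 0.910% of all probe sets, with 1 unadjusted p under 0.05 (2.70%, against 10.5%). The smallest adjusted p was 0.143 in epithelium (Cdt1), 0.170 in stroma (Chaf1b) and 0.273 for the difference between layers (Cdt1). In the epithelial arrays the mean of the epithelial markers was 10.34 under vehicle and 9.61 under E2, and that of the stromal markers 9.87 and 10.31. The leukocyte mean was 7.92 and 8.32 and the smooth muscle mean 11.05 and 10.79. Vehicle and E2 arrays overlapped in each of these means. The part of this mixture in the E2 comparisons of the 37 genes was not tested.

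**Figure D1:**
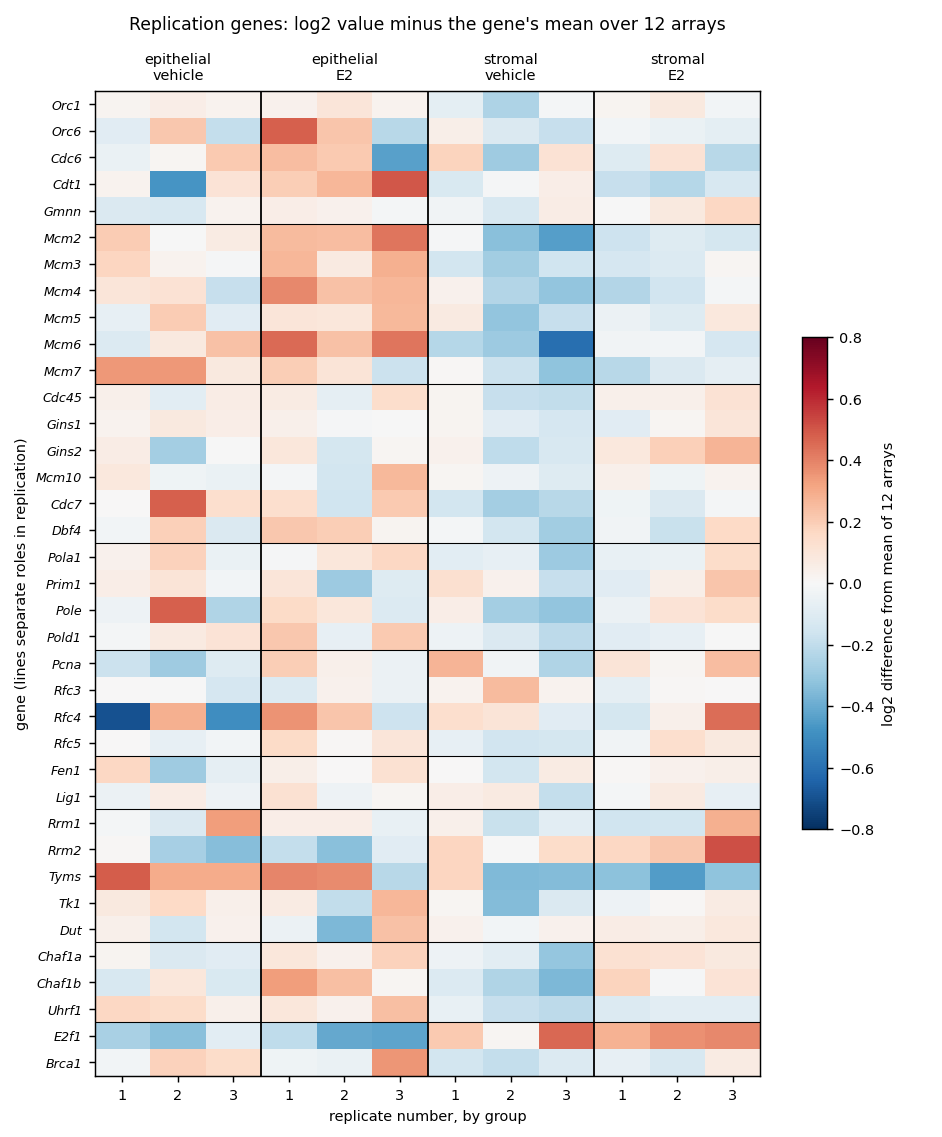
Log2 value of each of the 37 genes on each of the 12 arrays, less the mean of that gene over the 12 arrays, with red above and blue below the mean. Columns are the 3 replicates of each group and horizontal lines separate the roles listed in the text; most squares stay pale, the range over the 12 arrays being under 1 log2 unit in 35 of 37 genes.

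The measured differences were small. The median difference with E2 was 0.04 in epithelium, where all probe sets had a median of 0.03, and 0.11 in stroma, where it was 0.03. The median standard error of a gene was 0.12. In each layer the 95% interval of the E2 effect lay within a 1.5-fold change in either direction for 35 of 37 genes, and within a 2-fold change for 37 of 37. Over all probe sets, 74.4% in epithelium and 77.4% in stroma had an interval within 1.5-fold. The genes with wider intervals were Cdt1 and Rfc4 in epithelium, the widest reaching 1.95-fold, and Pole and Rfc4 in stroma, the widest reaching 1.54-fold.

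Most genes measured slightly higher with E2. This held for 24 of 37 genes in epithelium (64.9%, against 57.8% of all probe sets) and for 33 of 37 in stroma (89.2%, against 57.6%). With quantile normalization the numbers were 28 and 33, and with median centring 25 and 33. In epithelium the 3 E2 arrays lay above all 3 vehicle arrays in 7 genes and below them in 0, where 6.95% and 8.04% of all probe sets did so. In stroma the same held for 10 and 2 genes, where 15.9% and 14.6% of all probe sets did so. Differences were positive in both layers for 22 genes, negative in both for 2 (Cdc6 and Tyms), and of opposite sign for 13. The mean of the 37 genes was 7.34, 7.36 and 7.32 in the epithelial vehicle arrays and 7.46, 7.36 and 7.40 in the epithelial E2 arrays. It was 7.34, 7.19 and 7.18 in the stromal vehicle arrays and 7.29, 7.32 and 7.40 in the stromal E2 arrays. Stromal vehicle replicate 1 thus lay among the stromal E2 arrays.

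**Figure D2:**
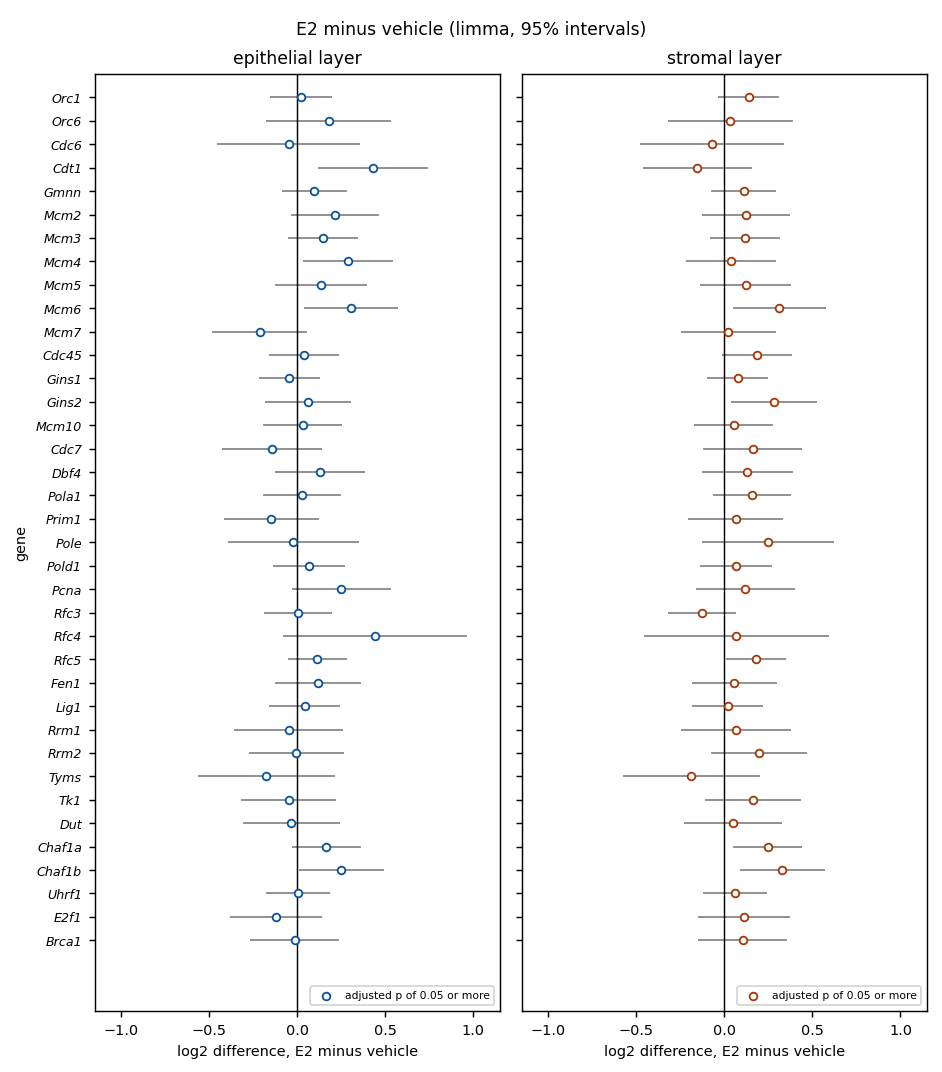
Log2 difference between E2 and vehicle for each of the 37 genes in the epithelial (left) and stromal (right) layer, with 95% intervals from limma. All points are open because 0 of 37 genes passed the threshold in either layer, and the farthest end of an interval reaches 1.95-fold (Rfc4 in epithelium).

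Array weights were the exception among the alternatives. A fit that weights each array by its own spread gave weights from 0.120 to 6.69 and called 4706 probe sets (20.1%) in epithelium and 4503 (19.2%) in stroma. It also called 4 of the 37 genes in epithelium (Orc6, Rfc4 and Chaf1b rising, Dut falling) and 5 in stroma (Mcm6, Gins2, Rfc5, Chaf1a and Chaf1b, all rising). For the difference between layers it called 2 (Cdt1 and Rfc4), where it called 19.2% of all probe sets.

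The other comparisons asked how the layers differed. Under vehicle 5 of the 37 genes were higher in epithelium, namely Mcm2, Mcm6, Mcm7, Cdc7 and Uhrf1, and E2f1 was lower. Over all probe sets 7.27% were higher and 14.1% lower in epithelium. Under E2 4 genes were higher in epithelium, namely Cdt1, Mcm2, Mcm4 and Mcm6, and 2 were lower, Rrm2 and E2f1, against 4.43% and 9.18% of all probe sets. The share of the 37 genes that were higher was 13.5% under vehicle and 10.8% under E2, and the share that were lower was 2.70% and 5.41%. The differences were all below 2-fold, the largest being E2f1 under E2 at 1.61-fold. Median differences were 0.12 under vehicle and 0.03 under E2, against 0.02 and 0.02 over all probe sets. With quantile normalization 1 gene was higher (2.70%) and 1 lower (2.70%) under vehicle, and 2 were higher (5.41%) and 2 lower (5.41%) under E2. Of all probe sets 38.7% then measured higher in epithelium under vehicle and 40.1% under E2, from 53.7% and 53.8%. The share of all probe sets called with this normalization is not given here. The medians of the 37 genes were then -0.01 and -0.04, against -0.06 and -0.05 over all probe sets. No direction is therefore given for the 37 genes as a whole.

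These counts moved with single arrays, including arrays outside a comparison, which enter through the shared spread. The share of all probe sets called is not given here for the fits of this paragraph. Under vehicle the 6 calls became 0 without stromal vehicle replicate 3 and 9 without epithelial E2 replicate 3. They became 2 without stromal vehicle replicate 2 or stromal E2 replicate 2, and 3 without epithelial vehicle replicate 1 or 3, epithelial E2 replicate 1, or stromal E2 replicate 1 or 3. On the 6 vehicle arrays alone 0 genes passed. Under E2 the 6 calls became 3 without epithelial E2 replicate 3 and 2 without any 1 of the stromal E2 arrays, and they stayed at 6 on the 6 E2 arrays alone. Residuals of epithelial and stromal vehicle arrays of the same number correlated weakly (0.17, 0.14 and 0.13). With that number as a block the vehicle calls were Mcm2, Mcm7, Tyms and E2f1. Same-numbered epithelial and stromal E2 arrays gave -0.31, 0.23 and -0.06, so blocked values under E2 rest on a pairing that these correlations do not show.

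**Figure D3:**
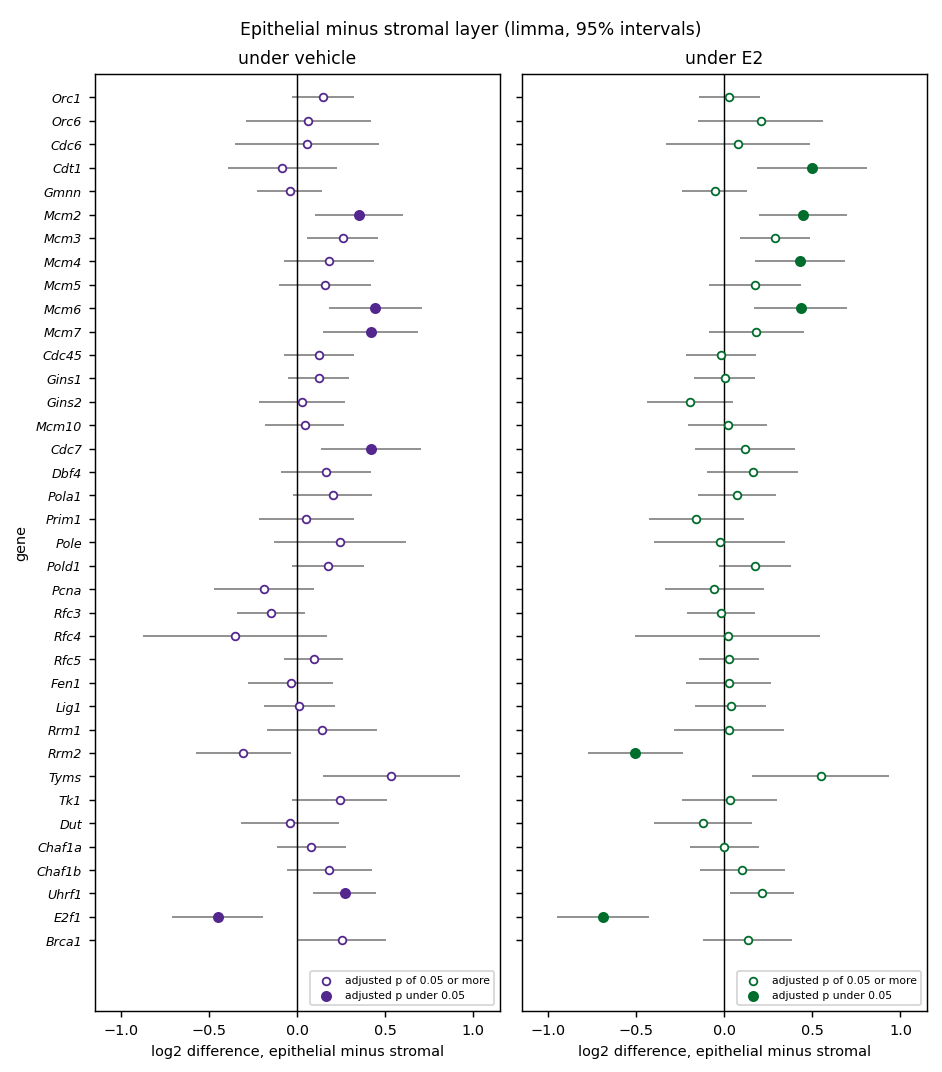
Log2 difference between the epithelial and stromal layers for each of the 37 genes, under vehicle (left) and under E2 (right), with 95% intervals from limma. Filled points passed the threshold in the fit without a replicate block, 5 above and 1 below 0 under vehicle and 4 above and 2 below 0 under E2.

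Among the licensing genes, Cdt1, which loads the helicase together with Cdc6 and is held in check by geminin, was the one that passed in a comparison. It measured 8.39, 7.89 and 8.47 (epithelial vehicle), 8.56, 8.63 and 8.86 (epithelial E2), 8.24, 8.36 and 8.42 (stromal vehicle) and 8.18, 8.14 and 8.23 (stromal E2). The epithelial E2 arrays were the highest of the 12 and did not overlap with any other group. The epithelial minus stromal difference of Cdt1 was 0.50 ± 0.14 under E2 (adjusted p = 0.0379, and 0.0521 with a replicate block) and -0.08 ± 0.14 under vehicle (adjusted p = 0.703). The E2 effect was 0.43 ± 0.14 in epithelium (adjusted p = 0.143) and -0.15 ± 0.14 in stroma (adjusted p = 0.834), and neither passed. Its call under E2 held in 4 of the 12 fits that left out 1 array.

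Orc1, an ATPase subunit of the origin recognition complex, had the smallest p of the licensing genes in stroma. It measured 5.95, 5.98 and 5.96 (epithelial vehicle), 5.96, 6.03 and 5.96 (epithelial E2), 5.85, 5.69 and 5.92 (stromal vehicle) and 5.95, 6.01 and 5.91 (stromal E2). All 12 values lay between 5.69 and 6.03, and the stromal E2 effect was 0.14 ± 0.08 (adjusted p = 0.588). Cdc6, the loading ATPase that binds the origin recognition complex, differed by -0.05 ± 0.19 in epithelium and -0.07 ± 0.19 in stroma with E2. Orc6, the smallest subunit of that complex, differed by 0.18 ± 0.16 and 0.03 ± 0.16, and Gmnn, which encodes the Cdt1 inhibitor geminin, by 0.10 ± 0.08 and 0.11 ± 0.08. Gmnn also varied little over the 12 arrays, from 5.14 to 5.43, at a low signal. A filter on low values, used as an alternative, asked for a log2 of 6 on 3 arrays. Orc1, Gmnn, Gins1 and Prim1 did not reach it.

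The 6 subunits of the MCM2-7 helicase, the ring that unwinds DNA at the fork, were all measured higher in the epithelial than in the stromal layer under both treatments. Their differences ran from 0.16 to 0.44 under vehicle (median 0.31), where 3 of 6 passed, and from 0.17 to 0.45 under E2 (median 0.36), where 3 of 6 passed. Over all probe sets 7.27% and 4.43% passed as higher in epithelium, and 53.7% and 53.8% measured higher there. With the replicate block 2 of 6 passed in each comparison, Mcm2 and Mcm7 under vehicle and Mcm2 and Mcm4 under E2. Averaged over the 6 genes, the epithelial vehicle arrays measured 7.71, 7.73 and 7.62 and the epithelial E2 arrays 7.88, 7.76 and 7.85. The stromal vehicle arrays measured 7.55, 7.33 and 7.26 and the stromal E2 arrays 7.46, 7.50 and 7.56. Each of the 6 epithelial arrays therefore lay above each of the 6 stromal ones. With quantile normalization and with median centring 6 of 6 subunits were again higher in epithelium under both treatments, the medians with quantile normalization being 0.21 and 0.26.

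Promoter windows of these genes are shown because E2F factors are the known regulators of MCM transcription. The words searched on both strands were TTTCCCGC, TTTCGCGC, TTTGCCGC and TTTGGCGC, which together spell the E2F consensus, in the 250 bases before each start in RefSeq (GRCm38.p6). Windows were found for 32 of the 37 genes, and not for Gins1, Gins2, Gmnn, Mcm4 and Pole. A word was present in 8 of 38 member windows (21.1%) and in 610 of all 32817 windows (1.86%). CCAAT, the NF-Y box, was present in 52.6% of member windows and 33.8% of all windows. Those with an E2F word belonged to Cdc6, Mcm5, Mcm6, Mcm7, Orc1, Pola1, Rfc3 and Uhrf1. These counts use the full 250 bases, also where a window lies within the RefSeq bounds of its gene. Of the windows with an E2F word, those of Mcm5, Mcm6 and Rfc3 lay mostly outside these bounds, and the others did not. The windows below run 5′ to 3′ on the strand of the gene, as the part of those 250 bases that lies outside the gene's RefSeq bounds (209 bases for Mcm5), and capitals mark the E2F words. Mcm6 and Mcm2 passed in both layer comparisons and Rrm2 under E2, while Mcm5 passed in neither. The lines show Mcm6 (chr1:128359706-128359955, minus strand), Mcm5 (chr8:75109259-75109467, plus strand), Mcm2 (chr6:88898781-88899030, minus strand) and Rrm2 (chr12:24708004-24708253, plus strand).
Mcm6: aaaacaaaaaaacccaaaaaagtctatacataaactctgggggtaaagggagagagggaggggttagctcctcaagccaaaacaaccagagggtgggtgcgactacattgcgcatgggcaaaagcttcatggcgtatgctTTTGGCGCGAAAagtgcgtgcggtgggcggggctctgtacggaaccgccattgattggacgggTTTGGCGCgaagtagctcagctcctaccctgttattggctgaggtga
Mcm5: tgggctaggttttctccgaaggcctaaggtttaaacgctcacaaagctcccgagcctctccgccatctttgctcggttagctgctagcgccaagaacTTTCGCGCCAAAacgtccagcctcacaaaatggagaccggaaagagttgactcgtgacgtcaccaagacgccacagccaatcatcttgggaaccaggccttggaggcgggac
Mcm2: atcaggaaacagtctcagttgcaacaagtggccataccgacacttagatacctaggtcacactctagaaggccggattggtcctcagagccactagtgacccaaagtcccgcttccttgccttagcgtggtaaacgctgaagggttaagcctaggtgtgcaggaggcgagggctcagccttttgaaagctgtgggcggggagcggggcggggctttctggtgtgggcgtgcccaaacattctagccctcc
Rrm2: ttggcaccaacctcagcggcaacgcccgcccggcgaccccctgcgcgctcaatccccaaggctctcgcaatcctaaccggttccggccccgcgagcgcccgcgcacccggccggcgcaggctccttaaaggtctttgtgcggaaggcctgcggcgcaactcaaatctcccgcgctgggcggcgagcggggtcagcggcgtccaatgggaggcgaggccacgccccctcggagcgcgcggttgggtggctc
The Mcm6 window holds 3 matches, of which an adjacent pair on opposite strands overlaps, and the Mcm5 window holds 2 that overlap in the same way. The E2F words are not in the Mcm2 and Rrm2 windows, each of which holds 1 CCAAT. A match is a description of the letters, and binding was not measured here.

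Mcm6 measured 6.96, 7.14 and 7.30 (epithelial vehicle), 7.52, 7.30 and 7.49 (epithelial E2), 6.84, 6.78 and 6.46 (stromal vehicle) and 7.04, 7.05 and 6.93 (stromal E2). The epithelial vehicle values lay above all stromal vehicle values, and in each layer the E2 arrays lay above the vehicle arrays. The layers differed by 0.44 ± 0.12 under vehicle (adjusted p = 0.0225, and 0.0717 with the replicate block) and 0.43 ± 0.12 under E2 (adjusted p = 0.0344, and 0.102 with the block). The E2 effects were 0.31 ± 0.12 in epithelium (adjusted p = 0.229) and 0.31 ± 0.12 in stroma (adjusted p = 0.263). The vehicle call held in 10 of 12 fits without 1 array and the E2 call in 7.

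Mcm2 measured 8.25, 8.04 and 8.11 (epithelial vehicle), 8.29, 8.29 and 8.47 (epithelial E2), 8.03, 7.71 and 7.60 (stromal vehicle) and 7.88, 7.93 and 7.90 (stromal E2). All epithelial values were above all stromal values. The difference was 0.35 ± 0.11 under vehicle (adjusted p = 0.0468, held in 3 of 12 fits) and 0.45 ± 0.11 under E2 (adjusted p = 0.0229, held in 8 of 12). The E2 effect was 0.22 ± 0.11 in epithelium and 0.12 ± 0.11 in stroma, without a call.

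Mcm4 measured 7.96, 7.98 and 7.68 (epithelial vehicle), 8.25, 8.10 and 8.13 (epithelial E2), 7.90, 7.63 and 7.55 (stromal vehicle) and 7.63, 7.71 and 7.85 (stromal E2). Its layer difference passed under E2 at 0.43 ± 0.12 (adjusted p = 0.0315, held in 7 of 12 fits without 1 array) and was 0.18 ± 0.12 under vehicle (adjusted p = 0.308), where the groups overlapped. Mcm7, in contrast, measured 8.64, 8.64 and 8.37 (epithelial vehicle), 8.49, 8.40 and 8.13 (epithelial E2), 8.30, 8.13 and 7.97 (stromal vehicle) and 8.07, 8.18 and 8.22 (stromal E2). Here the difference passed under vehicle at 0.42 ± 0.12 (adjusted p = 0.0321, held in 7 of 12 fits) and was 0.18 ± 0.12 under E2 (adjusted p = 0.370). Epithelial E2 replicate 3 was the lowest epithelial Mcm7 value and within the stromal range. Mcm7 was also the 1 subunit that measured lower with E2 in epithelium (-0.21 ± 0.12, adjusted p = 0.449). Mcm3 and Mcm5 did not pass in any comparison, with layer differences of 0.26 ± 0.09 and 0.16 ± 0.12 under vehicle and 0.29 ± 0.09 and 0.17 ± 0.12 under E2. The layer difference was not shown to change with E2 in any subunit, the adjusted p of that test being 0.752 or more.

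**Figure D4:**
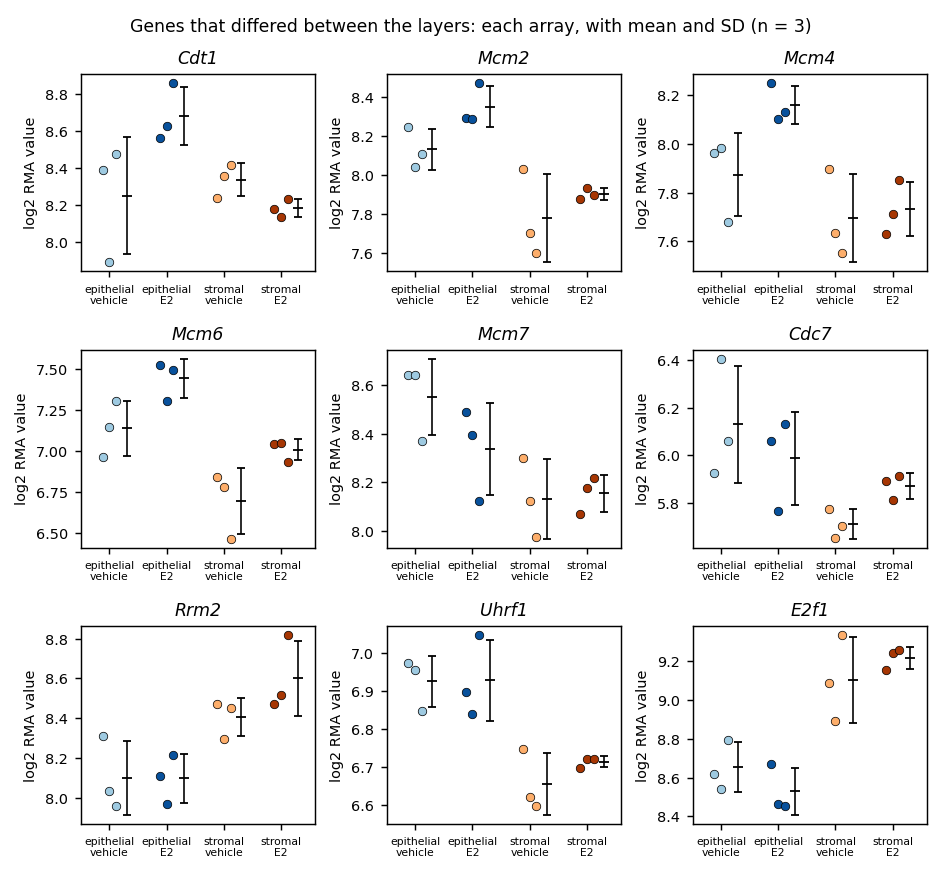
Log2 RMA value on each array for the 9 genes that passed in a comparison of the layers, in the 4 groups, with the group mean and SD (n = 3) beside the points; the vertical axes differ between panels and do not start at 0. Mcm2 and Mcm6 lie higher and E2f1 lower in epithelium under both treatments, while Cdt1 is highest in the epithelial E2 arrays at 8.56 to 8.86.

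Among the genes that fire origins, Cdc7, the kinase that phosphorylates the loaded helicase, was higher in epithelium under vehicle. It measured 5.93, 6.40 and 6.06 (epithelial vehicle), 6.06, 5.77 and 6.13 (epithelial E2), 5.78, 5.65 and 5.70 (stromal vehicle) and 5.89, 5.81 and 5.91 (stromal E2). Epithelial vehicle replicate 2 was the highest of the 12, and every epithelial vehicle value lay above every stromal vehicle value. The layer difference was 0.42 ± 0.13 under vehicle (adjusted p = 0.0387, and 0.0607 with the replicate block, held in 3 of 12 fits without 1 array) and 0.12 ± 0.13 under E2 (adjusted p = 0.604). Dbf4, the activating subunit of Cdc7, did not pass, with a layer difference of 0.16 ± 0.12 under vehicle and 0.16 ± 0.12 under E2.

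Gins2, a subunit of the GINS complex that completes the active helicase, measured 7.89, 7.56 and 7.83 (epithelial vehicle), 7.92, 7.69 and 7.85 (epithelial E2), 7.87, 7.63 and 7.71 (stromal vehicle) and 7.92, 8.03 and 8.11 (stromal E2). In stroma the E2 arrays lay above the vehicle arrays, by 0.28 ± 0.11 (adjusted p = 0.274), and in epithelium the groups overlapped (0.06 ± 0.11). Cdc45, another part of the active helicase, was 0.18 ± 0.09 higher with E2 in stroma (adjusted p = 0.462). Gins1 was the gene that varied least of all 37, from 5.08 to 5.32, at a signal that did not reach the filter on low values. Mcm10, a replication initiation factor, differed by 0.03 ± 0.10 and 0.05 ± 0.10 with E2 in epithelium and stroma.

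Of the polymerase genes none passed in any of the 5 comparisons by limma, and 0 of 4 had an unadjusted p under 0.05 in any of them. Pola1, the catalytic subunit of the priming polymerase, measured 6.25, 6.40 and 6.16 (epithelial vehicle), 6.21, 6.30 and 6.38 (epithelial E2), 6.13, 6.15 and 5.92 (stromal vehicle) and 6.15, 6.16 and 6.36 (stromal E2), with an E2 effect of 0.16 ± 0.10 in stroma (adjusted p = 0.670). Prim1, the primase subunit that makes the RNA primer, measured 5.64, 5.69 and 5.57 (epithelial vehicle), 5.68, 5.30 and 5.48 (epithelial E2), 5.72, 5.63 and 5.41 (stromal vehicle) and 5.50, 5.63 and 5.81 (stromal E2), with an E2 effect of -0.15 ± 0.12 in epithelium (adjusted p = 0.664). In both genes the vehicle and E2 values of the epithelial layer overlapped. Pole and Pold1, the leading and lagging strand polymerases, differed by -0.02 ± 0.17 and 0.07 ± 0.09 in epithelium and 0.25 ± 0.17 and 0.07 ± 0.09 in stroma.

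Pcna, the sliding clamp, had the smallest p of the clamp genes in epithelium. It measured 10.13, 10.01 and 10.19 (epithelial vehicle), 10.49, 10.34 and 10.25 (epithelial E2), 10.57, 10.27 and 10.06 (stromal vehicle) and 10.40, 10.31 and 10.54 (stromal E2). The epithelial E2 arrays were above the epithelial vehicle arrays, by 0.25 ± 0.13 (adjusted p = 0.377), while stromal vehicle replicate 1 was the highest of the 12. A second probe set with the symbol Pcna differed from this one by at most 0.0203 on any array, and only the brighter is used.

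The clamp loader places Pcna on DNA. Rfc5, a small subunit of it, measured 8.79, 8.73 and 8.77 (epithelial vehicle), 8.94, 8.80 and 8.89 (epithelial E2), 8.72, 8.64 and 8.65 (stromal vehicle) and 8.77, 8.92 and 8.87 (stromal E2). In both layers the E2 arrays lay above the vehicle arrays, by 0.11 ± 0.08 in epithelium (adjusted p = 0.546) and 0.18 ± 0.08 in stroma (adjusted p = 0.342). Rfc4, another small subunit, varied most of the 37 genes over the 12 arrays, from 6.96 to 8.10. The epithelial vehicle values were 6.96, 7.94 and 7.16 and the epithelial E2 values 8.02, 7.87 and 7.49, so that vehicle replicate 2 lay among the E2 arrays, and the effect was 0.44 ± 0.24 (adjusted p = 0.409). Rfc3 differed by 0.00 ± 0.09 in epithelium and -0.12 ± 0.09 in stroma.

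Okazaki fragments are trimmed by the flap nuclease Fen1 and sealed by the ligase Lig1. Fen1 measured 7.05, 6.60 and 6.81 (epithelial vehicle), 6.930, 6.886 and 7.004 (epithelial E2), 6.89, 6.74 and 6.95 (stromal vehicle) and 6.89, 6.92 and 6.93 (stromal E2). These groups overlapped, and its E2 effect was 0.12 ± 0.11 in epithelium and 0.06 ± 0.11 in stroma. Lig1 differed by 0.04 ± 0.09 and 0.02 ± 0.09. Neither gene differed between layers past the threshold (differences of -0.04 and 0.01 under vehicle and 0.02 and 0.04 under E2).

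Ribonucleotide reductase makes deoxynucleotides, and its small subunit gene Rrm2 was lower in epithelium under E2. Rrm2 measured 8.31, 8.03 and 7.96 (epithelial vehicle), 8.11, 7.97 and 8.21 (epithelial E2), 8.47, 8.30 and 8.45 (stromal vehicle) and 8.47, 8.52 and 8.82 (stromal E2). Every epithelial E2 value lay below every stromal E2 value, and the difference was -0.50 ± 0.12 (adjusted p = 0.0190, and 0.0192 with the replicate block, held in 10 of 12 fits). Under vehicle it was -0.30 ± 0.12 (adjusted p = 0.108). Rrm1, the large subunit, did not differ past the threshold between layers, at 0.14 ± 0.14 under vehicle and 0.03 ± 0.14 under E2.

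Tyms, thymidylate synthase, measured 8.30, 8.11 and 8.11 (epithelial vehicle), 8.21, 8.19 and 7.59 (epithelial E2), 7.98, 7.46 and 7.47 (stromal vehicle) and 7.49, 7.37 and 7.49 (stromal E2). Its epithelial vehicle values were above its stromal vehicle values, by 0.53 ± 0.18 (adjusted p = 0.0531, and 0.0490 with the replicate block), and under E2 the difference was 0.55 ± 0.18 (adjusted p = 0.0661). Epithelial E2 replicate 3 was the lowest epithelial value and stood apart from the other 2 arrays of its group, below stromal vehicle replicate 1. Tk1, thymidine kinase, differed by -0.05 ± 0.12 with E2 in epithelium and 0.16 ± 0.12 in stroma. Its second probe set differed from the first by up to 0.637 on an array and gave 0.12 and 0.08 for the same effects. Dut, which keeps uracil out of DNA, differed by -0.03 ± 0.13 and 0.05 ± 0.13.

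New DNA is packed by the chromatin assembly factor, of which Chaf1a and Chaf1b encode subunits. Chaf1b had the smallest p of all 37 genes in stroma and measured 7.53, 7.75 and 7.53 (epithelial vehicle), 7.99, 7.90 and 7.68 (epithelial E2), 7.55, 7.42 and 7.30 (stromal vehicle) and 7.84, 7.65 and 7.77 (stromal E2). The stromal E2 arrays lay above the stromal vehicle arrays, by 0.33 ± 0.11 (adjusted p = 0.170), and in epithelium the effect was 0.25 ± 0.11 (adjusted p = 0.286). Chaf1a gave 0.25 ± 0.09 in stroma and 0.17 ± 0.09 in epithelium, its E2 arrays lying above the vehicle arrays in both. Uhrf1, which recruits the maintenance methyltransferase to new DNA, measured 6.97, 6.95 and 6.85 (epithelial vehicle), 6.90, 6.84 and 7.05 (epithelial E2), 6.75, 6.62 and 6.60 (stromal vehicle) and 6.70, 6.72 and 6.72 (stromal E2). Uhrf1 was 0.27 ± 0.08 higher in epithelium under vehicle (adjusted p = 0.0383, and 0.0724 with the replicate block, held in 4 of 12 fits without 1 array) and 0.21 ± 0.08 under E2 (adjusted p = 0.122). Its E2 effect in epithelium was 0.00 ± 0.08 (95% interval -0.18 to 0.18).

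E2f1, an activator of many replication genes, was lower in epithelium under both treatments. It measured 8.62, 8.54 and 8.80 (epithelial vehicle), 8.67, 8.47 and 8.46 (epithelial E2), 9.09, 8.89 and 9.34 (stromal vehicle) and 9.15, 9.24 and 9.26 (stromal E2). Every epithelial value lay below every stromal value. Group means were 8.65 ± 0.13 and 8.53 ± 0.12 (SD, n = 3) in epithelium under vehicle and E2, and 9.11 ± 0.22 and 9.22 ± 0.06 (SD, n = 3) in stroma. The difference was -0.45 ± 0.12 under vehicle (adjusted p = 0.0189, held in 9 of 12 fits) and -0.69 ± 0.12 under E2 (adjusted p = 0.00264), which held in 12 of 12 fits without 1 array. The E2 effect was -0.12 ± 0.12 in epithelium and 0.11 ± 0.12 in stroma. Brca1, a repair gene of S phase, passed in no comparison and differed by -0.01 ± 0.12 and 0.10 ± 0.12 with E2.

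The epithelial and mesothelial markers given above moved with the layer. Stromal and smooth muscle marker means were lower in the epithelial arrays, the latter at 10.60 to 11.16 against 11.81 to 12.14. The stromal list was split, with 10 of 15 genes lower and 5 higher in epithelium under each treatment (medians -0.64 under vehicle and -0.13 under E2). The leukocyte mean ran from 7.67 to 8.58 in epithelial and 8.32 to 8.80 in stromal arrays, with 3 of 12 genes higher in epithelium under vehicle and 4 under E2. Of 8 endothelial markers 2 were higher in epithelium under vehicle and 4 under E2. The part of this mixture in the layer differences of the replication genes was not tested.

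Other genes of the pathway were taken from 7 lists, of which 120 of 126 genes were measured. Of 31 further replication factors 0 rose and 0 fell with E2 in either layer by limma, and the medians were 0.04 in epithelium and -0.02 in stroma. Of all probe sets 2.90% passed in epithelium and 3.50% in stroma. Unadjusted p-values under 0.05 numbered 4 in each layer (12.9%), against 16.2% of all probe sets in epithelium and 12.5% in stroma. For the 12 fork protection and checkpoint genes the counts were 0 and 0 in both layers as well, with 1 unadjusted p under 0.05 in each (8.33%). Replicating chromatin genes, which include the proliferation marker Mki67, had 0 of 12 passing in both layers. They had 5 unadjusted p-values under 0.05 in epithelium (41.7%, against 16.2% of all probe sets) and 1 in stroma (8.33%, against 12.5%). Mki67 itself differed by 0.08 ± 0.27 in epithelium and 0.31 ± 0.27 in stroma.

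Upstream of replication, Ccnd1, the D-type cyclin of early G1, fell with E2 in epithelium. Of 21 G1/S cyclins, kinases and E2F pocket proteins, it was the 1 to pass there, against 2.90% of all probe sets. The epithelial values of Ccnd1 were 10.10, 10.46 and 8.77 under vehicle and 7.997, 8.089 and 8.252 under E2. The difference was -1.66 ± 0.33 (adjusted p = 0.0214, 5.63e-05 to 0.0963 without 1 array, held in 9 of 12 fits), against -0.31 ± 0.33 in stroma (adjusted p = 0.873). In the same arrays 14 of 17 epithelial markers measured lower with E2 (median -0.74), 1 of them past the threshold and 8 with an unadjusted p under 0.05, and among the vehicle arrays replicate 2 was the highest and replicate 3 the lowest for Ccnd1 as for the marker mean. The part of these cells in the difference of Ccnd1 was not tested. In stroma 1 of the 21 passed, against 3.50% of all probe sets. This was Ccne1, the cyclin that activates Cdk2 at the start of S phase. Ccne1 rose by 0.37 ± 0.08 (adjusted p = 0.0226, 0.0157 to 0.127 without 1 array, held in 7 of 12 fits). Its stromal values were 8.69, 8.75 and 8.60 under vehicle and 9.02, 9.13 and 9.01 under E2, and in epithelium it differed by 0.16 ± 0.08 (adjusted p = 0.367).

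Among 6 measured inhibitors of cyclin-dependent kinases, Cdkn2b, an inhibitor of Cdk4 and Cdk6, was the 1 to pass in epithelium, where it fell. Of all probe sets 2.90% passed there. The difference of Cdkn2b was -0.60 ± 0.13 (adjusted p = 0.0355, 0.00573 to 0.127 without 1 array, held in 5 of 12 fits). In stroma 0 of the 6 passed, with 2 unadjusted p-values under 0.05 (33.3%, against 12.5% of all probe sets). In epithelium 4 of the 6 had an unadjusted p under 0.05 (66.7%, against 16.2%). There 4 of 6 measured higher with E2, opposite to Cdkn2b, with a median of 0.16 and a highest value of 0.48. Samhd1, which degrades deoxynucleotides, rose in stroma by 1.06 ± 0.25 (adjusted p = 0.0383, 0.0254 to 0.160 without 1 array, held in 5 of 12 fits). It was the 1 of 15 genes of nucleotide metabolism to pass there, against 3.50% of all probe sets. In epithelium 0 of the 15 passed, with 3 unadjusted p-values under 0.05 (20%, against 16.2% of all probe sets). Mad2l1, the spindle checkpoint gene, rose in both layers and was the 1 gene of 23 in the mitosis list to pass in each. Of all probe sets 2.90% passed in epithelium and 3.50% in stroma. Mad2l1 went from 8.30, 8.68 and 8.45 to 9.65, 9.53 and 9.19 in epithelium (0.98 ± 0.14, adjusted p = 0.00489, held in 12 of 12 fits) and from 8.75, 8.85 and 8.47 to 9.46, 9.38 and 9.55 in stroma (0.77 ± 0.14, adjusted p = 0.0120, held in 9 of 12).

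**Figure D5:**
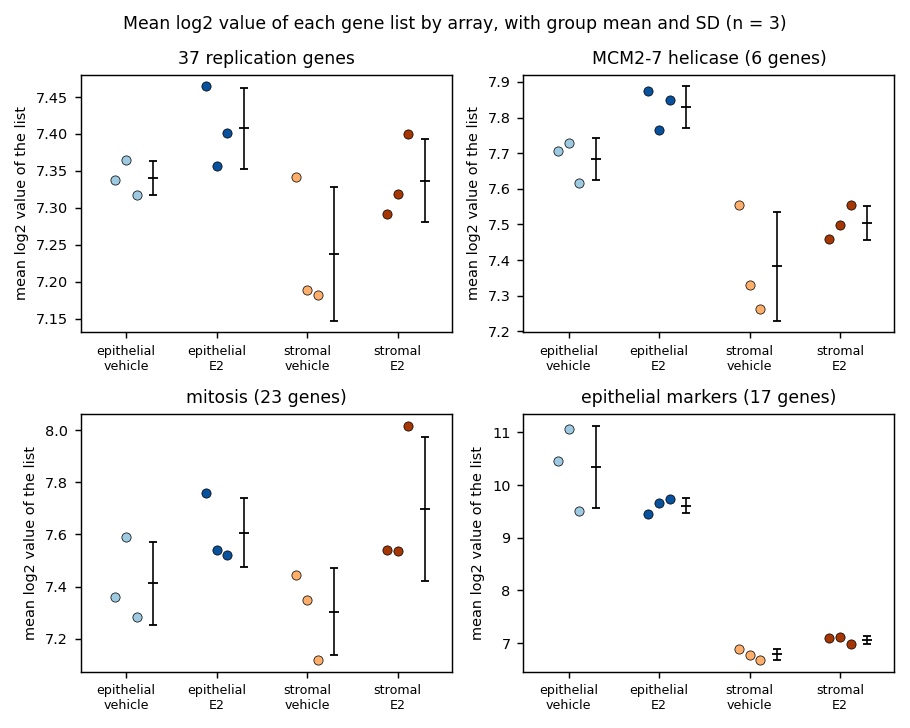
Mean log2 value per array of the 37 replication genes, the 6 MCM2-7 genes, 23 mitosis genes and 17 epithelial markers in the 4 groups, with the group mean and SD (n = 3); the vertical axes differ between panels. The MCM2-7 mean is 7.62 to 7.88 in epithelial and 7.26 to 7.56 in stromal arrays, while the mitosis mean is highest, at 8.02, in stromal E2 replicate 3.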

How the data were processed

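The values were log2 signals from Affymetrix Mouse Gene 1.0 ST arrays, 35556 probe sets on 12 arrays, made by the authors with RMA per the submitters' processing notes, whose version and settings are not given in the sources used here. They were used as deposited, and 0 columns lacked a sample. Symbols came from the platform annotation, and the identifiers of 37 of 37 genes matched the RefSeq table (GRCm38.p6).

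The tests were two-sided moderated ones of limma 3.58.1 (lmFit and eBayes) under R 4.3.3, on all 12 arrays in 4 groups, with 8 residual degrees of freedom, after the script was tested on simulated data. Tests ran over 23410 probe sets with a symbol and were Benjamini-Hochberg adjusted in each of 5 comparisons. The genes, their roles and the 7 pathway lists were chosen with earlier results of these data known. Members past the threshold in a comparison, or with the smallest p of their role under E2, are given on every array. Pathway genes were named where they passed with E2, besides Ccnd1, Ccne1 and Mki67, and Cdkn1a was not analysed here.

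Replicate numbers come from the titles. Residuals of same-numbered epithelial and stromal vehicle arrays correlated weakly (0.17, 0.14 and 0.13), whereas the other pairs of groups had at least 1 correlation below 0. The labels do not state a pairing, and the main tests used no block. A block for the number was an alternative, besides a filter on low values (log2 of 6 on 3 arrays), all probe sets, 2 scalings, a trended robust prior, array weights, the mean of a gene's probe sets, the arrays of 1 layer or treatment, a threshold of 0.1, and leaving out each array.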

Additional observations from a re-analysis of the deposited data

Results flagged for a closer look

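Cdt1 stood out because each of its 3 epithelial E2 arrays lay above, and each of its 3 stromal E2 arrays below, the vehicle arrays of the same layer. Of all probe sets 6.95% lay above in epithelium and 14.6% below in stroma, and the share with both is not given here. The stromal groups were barely apart, the highest E2 value being 8.233 and the lowest vehicle value 8.240. The effect of E2 was 0.43 in epithelium and -0.15 in stroma, a difference between layers of 0.58 ± 0.20 on the log2 scale, which did not pass in limma (adjusted p = 0.273).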

How the results depend on the processing

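With array weights the calls among the 37 genes went from 0 to 4 with E2 in epithelium and from 0 to 5 in stroma. That fit called 20.1% and 19.2% of all probe sets there. The calls went from 0 to 2 for the difference between layers and from 6 to 17 for the layers under E2. Of all probe sets it called 19.2% and 50.4% in these comparisons, and 42.1% for the layers under vehicle. Each of the E2 counts and the difference between layers stayed at 0 in the other alternatives, the replicate block and the 12 fits without 1 array included. For the layers under vehicle, quantile normalization gave 2 calls (from 6), the 6 vehicle arrays alone gave 0, and leaving out 1 array gave 0 to 9. For the layers under E2, leaving out 1 array gave 2 to 7. The medians of the 37 genes between layers went from 0.12 to -0.01 under vehicle and from 0.03 to -0.04 under E2 with quantile normalization. The replicate block gave 4 calls in each layer comparison. Among these alternatives, the share of all probe sets called is given here only for array weights. The 12 layer results of single genes kept their direction in each alternative, and 5 of 12 kept their call under quantile normalization. Without a call on either side, the E2 effect changed sign for Fen1 in epithelium with array weights (-0.057), and without 1 array for Fen1 in stroma (-0.0042 to 0.10), Tyms in epithelium (-0.28 to 0.027) and Mki67 in epithelium (-0.079 to 0.31). The causes were not tested. With 3 arrays a group, the intervals of 35 of 37 genes in each layer allow E2 effects smaller than 1.5-fold.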

Other observations

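Of the 23 mitosis genes Mad2l1 alone passed with E2 in stroma by limma, where 3.50% of all probe sets passed. All 23 measured higher with E2 there, against 57.6% of all probe sets (median 0.40, against 0.03), and 14 (60.9%) had an unadjusted p under 0.05, against 12.5%. In epithelium 19 of 23 measured higher (82.6%, against 57.8%), with a median of 0.14, and 5 (21.7%) had an unadjusted p under 0.05, against 16.2%. The mean of the list was 7.45, 7.35 and 7.12 in the stromal vehicle arrays and 7.54, 7.54 and 8.02 in the stromal E2 arrays, replicate 3 being the highest, and 7.36, 7.59 and 7.28 and 7.76, 7.54 and 7.52 in epithelium.

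Control genes of G1 and S phase also differed between the layers. Under vehicle 2 of 21 G1/S cyclins, kinases and E2F pocket proteins were higher in epithelium and 5 lower, and of 6 inhibitors of cyclin-dependent kinases 2 were higher and 2 lower, where 7.27% of all probe sets were higher and 14.1% lower. Of these, Cdkn2b (1.26 ± 0.13), Cdkn2a (0.66 ± 0.13), Cdk6 (1.12 ± 0.15) and Ccnd1 (1.58 ± 0.33) were higher in epithelium. Lower there were E2f8, a repressor of the E2F family (-1.23 ± 0.15), the repressor E2f6 (-1.04 ± 0.19), the pocket proteins Rb1 (-0.93 ± 0.28) and Rbl2 (-0.71 ± 0.16), the kinase Cdk2 (-0.32 ± 0.10), and the inhibitors Cdkn1b (-0.43 ± 0.12) and Cdkn1c (-0.45 ± 0.08). Their adjusted p from limma lay between 9.13e-05 and 0.0439. Under E2 1 of the 21 was higher, Cdk6 (0.69 ± 0.15), and 4 were lower, E2f8 (-0.98 ± 0.15), E2f6 (-1.13 ± 0.19), Rb1 (-1.42 ± 0.28) and Ccne1 (-0.36 ± 0.08). Of the 6 inhibitors Cdkn2b was higher (1.06 ± 0.13) and 0 were lower, where 4.43% of all probe sets were higher and 9.18% lower. These genes were named after their values were seen. Of 31 further replication factors 6 were lower in epithelium under vehicle (Orc3, Gins4, Prim2, Pole4, Rpa3 and Mcmbp) and 1 was higher (Ticrr), where 14.1% and 7.27% of all probe sets were. Under E2 1 was lower (Rpa1) and 0 were higher, against 9.18% and 4.43%.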
